A study of Mus musculus with 18 samples.

Results

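Livers of mice given metformin were compared with livers of mice given TM5614, gene by gene and without the untreated mice as a go-between. For each gene the measure is the log2 ratio of the authors' 2 group means, log2((metformin + 1)/(TM5614 + 1)), where 1 normalized count is the pseudocount that keeps genes at 0 in the calculation. A positive log2 ratio means a higher level under metformin. Genes were kept where the mean over the 5 group columns of the authors' table reached 10 normalized counts, which held for 11201 of 12019 genes. Ccl2 (mean 10.004) was the last gene inside this limit and Cenpm (9.99) the first outside it.

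Both groups were C57BL/6J mice whose compounds were mixed into the chow for 8 weeks from 21 weeks of age, with 37.5 mg/kg/day of metformin or 20 mg/kg/day of TM5614. Each group has 3 of the study's 18 labelled libraries, and the others are 3 each of mice given rapamycin at 42 mg/kg/day or 30% caloric restriction and 6 of mice fed ad libitum, the control of the study. The libraries were made from RNA of whole liver, flushed with saline beforehand, by a protocol that selects polyadenylated RNA. The labels give neither the sex of the mice nor the hour of collection, and the doses of the compounds differ. Only group means could be matched to the labels, so no spread between mice is available, no difference between the compounds was tested, and whether any of them exceeds the variation between mice is unknown. A test exists only against the ad libitum control, as the adjusted p of the authors' deposited table, and because both compounds were set against the same control mice these results are placed side by side and not combined.

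Metformin is a glucose-lowering biguanide that inhibits mitochondrial complex I and activates the energy-sensing kinase AMPK. TM5614 is an oral compound that acts on fibrinolysis, in which plasmin, released from plasminogen by its activators, dissolves fibrin. Sterol and fatty acid synthesis genes in the liver are driven by the SREBP transcription factors, and the chaperones of the endoplasmic reticulum by ATF6 and XBP1 when unfolded proteins accumulate.

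Metformin livers held more transcript of sterol and fatty acid synthesis genes, of G6pc and of endoplasmic reticulum chaperones than TM5614 livers, and less of several acute phase, cytokine-induced and endothelial genes. Most genes lay close together. The median log2 ratio was 0.01, the quartiles of the 11201 genes were -0.18 and 0.19, and 5721 genes (51.1%) had a ratio above 0. At least 2-fold higher under metformin were 55 genes, which is 0.491% of those compared, and at least 2-fold lower were 61 genes, or 0.545% (1.04% in either direction). With a limit of 1.5-fold the counts were 321 genes higher (2.87%) and 410 lower (3.66%), or 6.53% in all. Next to the 2-fold limit lay Fasn (log2 ratio 1.002) inside and Fabp5 (0.999) outside on the higher side, and Cyp4a10 (-1.01) inside and Cd93 (-0.9997) outside on the lower side.

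**Figure D1:**
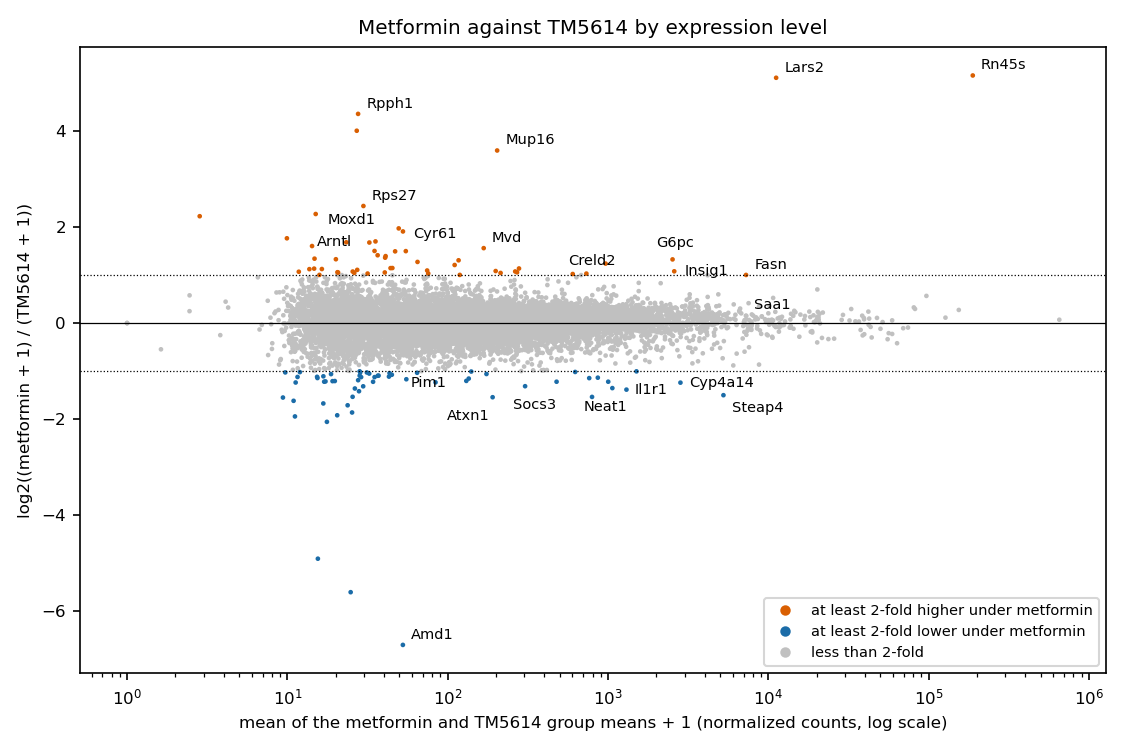
Each point is 1 of the 11201 genes, with the mean of the metformin and TM5614 group means plus 1 on the horizontal log axis (normalized counts) and the log2 ratio of metformin over TM5614 on the vertical axis; dotted lines mark a 2-fold difference. The 55 orange and 61 blue genes lie beyond the lines, and Rn45s and Lars2 stand far above the other abundant genes at 5.16 and 5.11.

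Sterol synthesis genes were higher under metformin almost throughout their pathway. Of the 25 genes of cholesterol synthesis and uptake, all of which passed the level limit, 24 had a ratio above 0 and the list median was 0.42, against 0.01 over all genes. At least 2-fold higher were 2 of 25 and at least 1.5-fold higher 7 of 25, and none was as much as 1.5-fold lower. Mvd, which makes isopentenyl diphosphate from mevalonate diphosphate, averaged 249 normalized counts under metformin and 83.9 under TM5614 (log2 ratio 1.56). Its gene lies at chr8:122433601-122443422 (GRCm38). The other was Insig1, whose product holds the SREBP escort protein in the endoplasmic reticulum when sterols are plentiful, with 3511 under metformin and 1663 under TM5614 (1.08). Hmgcs1, the synthase that supplies HMG-CoA, lay just under 2-fold with 5564 and 2790 (log2 ratio 0.996).

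The enzymes further along the pathway lay on the same side. Lanosterol synthase (Lss) had 633 normalized counts under metformin and 346 under TM5614 (0.87), and mevalonate kinase (Mvk) had 202 and 114 (0.83). Squalene synthase (Fdft1) had 1364 under metformin and 802 under TM5614, and Fdps, which makes farnesyl diphosphate, had 3892 and 2570. The regulator Srebf2 was nearly level at 468 under metformin and 459 under TM5614. The sterol carrier Stard4 was the single member with a ratio below 0 (-0.11).

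Against the control, 16 of the 25 sterol genes had a log2 fold change above 0 under metformin (median 0.09) and 3 under TM5614 (median -0.33), by the authors' deposited table. Among genes for which the authors' deposited table has an adjusted p, 12 of 7350 (0.163%) were higher and 6 (0.0816%) lower under metformin, 0.245% in all. Under TM5614 it calls 218 of 10834 genes (2.01%) higher and 211 (1.95%) lower, 3.96% in all. Of the 25 sterol genes, none was called under metformin and 2 fell under TM5614 in the authors' deposited table. These were Mvk, with a log2 fold change of -0.05 under metformin (adjusted p = 0.998) and -0.88 under TM5614 (adjusted p = 0.0341), per the authors' deposited table, and Sc5d, with -0.18 under metformin (adjusted p = 0.977) and -0.73 under TM5614 (adjusted p = 0.00322). Mvd had 0.58 under metformin (adjusted p = 0.941) and -0.995 under TM5614 (adjusted p = 0.165), per the authors' deposited table, so that neither passed.

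The promoter of Hmgcs1 is shown because it alone among the sterol genes searched held a sterol response element. RefSeq promoters reaching from 250 bases before the start of transcription to 50 after it were searched on both strands for TCACNCCAC, a form of the element bound by SREBP. It occurred in 408 of 32851 mouse promoters (1.24%) and in 1 of the 16 sterol genes whose promoter was at hand. The 250 bases before the start lie on the plus strand at chr13:119690101-119690350 (GRCm38.p6), with the element, 137 bases before the start, in capitals.
Hmgcs1: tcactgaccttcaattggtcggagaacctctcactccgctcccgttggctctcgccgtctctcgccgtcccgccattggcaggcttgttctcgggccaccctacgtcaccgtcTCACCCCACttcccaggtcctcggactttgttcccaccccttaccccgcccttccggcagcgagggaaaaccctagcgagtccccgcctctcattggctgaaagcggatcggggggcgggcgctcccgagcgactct
A match of these letters describes the sequence and does not show that a factor binds there.

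Genes of fatty acid and triglyceride synthesis were mostly higher under metformin too, with 20 of 24 ratios above 0 and a median of 0.27. Fatty acid synthase (Fasn) averaged 9678 normalized counts under metformin and 4832 under TM5614, just past 2-fold, and was the only member beyond that limit. It lies at chr11:120805846-120824547 (GRCm38). Srebf1, which encodes the SREBP form that drives these genes, had 1992 under metformin and 1114 under TM5614 (0.84). The elongase Elovl3 had 1905 and 1201 (0.67), the lipogenic regulator Thrsp 5867 and 3876 (0.60), and the desaturase Scd1, one of the most abundant messages, 115518 and 78044 (0.57). The list was not uniform. Lpin1, a phosphatidate phosphatase, had 4250 under metformin and 7834 under TM5614 (-0.88), and its relative Lpin2 2347 and 3021 (-0.36).

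Of these 24 genes, 4 fell under TM5614 (Acly, Agpat2, Elovl5 and Fasn) and 1 fell under metformin (Lpin2), by the authors' deposited table. Fasn had a log2 fold change of 0.19 under metformin (adjusted p = 0.98) and -0.82 under TM5614 (adjusted p = 0.0216), per the authors' deposited table. Lpin2 had -0.99 under metformin (adjusted p = 0.0177) and -0.63 under TM5614 (adjusted p = 0.108), per the authors' deposited table. Genes of fatty acid oxidation and ketogenesis lay slightly the other way, with 10 of 28 ratios above 0 and a median of -0.08. The fatty acid hydroxylases Cyp4a14 and Cyp4a10, targets of PPAR alpha, had 1681 and 999 normalized counts under metformin, against 3973 and 2007 under TM5614. They are close relatives, so the division of reads between them is uncertain. Ppara itself had 1400 under metformin and 1981 under TM5614 (-0.50), and the carnitine transferase Cpt1a, which carries fatty acids into mitochondria, 2614 and 3715 (-0.51).

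**Figure D2:**
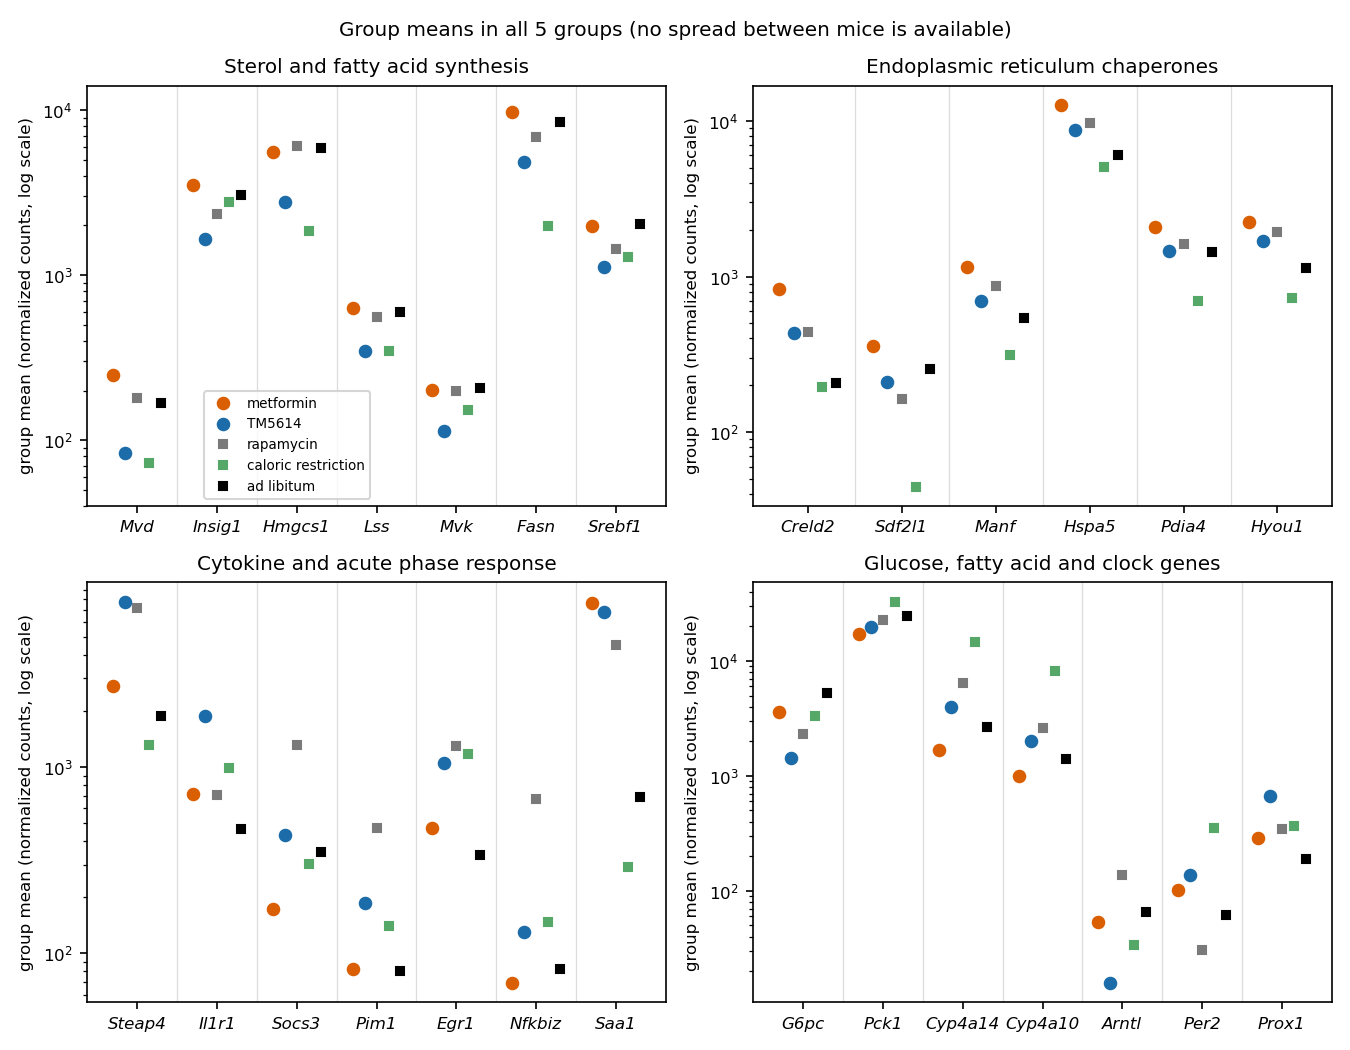
Group means in normalized counts on a log axis for 27 genes in 4 panels; circles are metformin and TM5614, squares the 3 other groups, and each point is 1 group mean with no error bar because no spread between mice is available. Metformin lies above TM5614 for all genes of the 2 upper panels, and below it for Steap4, Il1r1, Socs3, Pim1, Egr1 and Nfkbiz at the lower left.

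Glucose production genes split. G6pc, the phosphatase that releases free glucose from the hepatocyte, averaged 3610 normalized counts under metformin and 1440 under TM5614 (log2 ratio 1.33) and lies at chr11:101367561-101377903 (GRCm38). Pck1, which commits carbon to gluconeogenesis, had 17235 under metformin and 19538 under TM5614 (-0.18). The glycogen-targeting phosphatase subunits Ppp1r3c and Ppp1r3b had 328 and 1884 under metformin, against 188 and 1402 under TM5614. Foxo1, a transcription factor that insulin keeps out of the nucleus, was lower under metformin with 349, against 523 under TM5614 (-0.58). In the whole list 8 of 20 ratios were above 0, with a median of -0.07.

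Against the control, 1 of the 20 genes was called lower under metformin and 2 under TM5614, by the authors' deposited table. Over all genes with an adjusted p, 0.0816% were called lower under metformin and 1.95% under TM5614. G6pc had a log2 fold change of -0.53 under metformin (adjusted p = 0.955) and -1.86 under TM5614 (adjusted p = 0.00161), per the authors' deposited table. Foxo1 had -0.80 under metformin (adjusted p = 0.00304) and -0.21 under TM5614 (adjusted p = 0.534), per the authors' deposited table. Ppp1r3g had 29.9 normalized counts under metformin and 32.4 under TM5614, and its log2 fold change was -3.67 under metformin (adjusted p = 0.0989) and -3.55 under TM5614 (adjusted p = 0.025), per the authors' deposited table. In the list of glycolysis and glucokinase genes 12 of 17 ratios were above 0 (median 0.06), and Pfkfb3, which makes the activator of phosphofructokinase, stood apart with 266 under metformin and 524 under TM5614 (-0.98).

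Chaperones of the endoplasmic reticulum were higher under metformin, while Xbp1 was lower. Of the 24 genes of the unfolded protein response, 19 had a ratio above 0 (median 0.20), and 3 were at least 1.5-fold higher. Creld2, a secreted protein induced by stress of the endoplasmic reticulum, averaged 836 normalized counts under metformin and 431 under TM5614 (0.95). Sdf2l1 had 359 and 211 (0.76), and Manf, a secreted survival factor of the same response, 1147 and 702 (0.71). The chaperone BiP (Hspa5) had 12633 under metformin and 8788 under TM5614 (0.52), and the disulfide isomerase Pdia4 had 2073 and 1454 (0.51). Xbp1, whose spliced message encodes a regulator of these genes, had 2149 under metformin and 2912 under TM5614 (-0.44). Its kinase Ern1, which splices that message, had 216 and 251 (-0.22), while Ddit3, a mediator of cell death in this response, had 28.7 and 25.3 (0.17).

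In the authors' deposited table Creld2, Hspa5, Hyou1 and Manf rose under metformin and 1 of the 24, Xbp1, rose under TM5614. Creld2 had a log2 fold change of 2.005 under metformin (adjusted p = 1.26e-04) and 1.05 under TM5614 (adjusted p = 0.0663), per the authors' deposited table. Hspa5 had 1.07 under metformin (adjusted p = 0.0141) and 0.55 under TM5614 (adjusted p = 0.217), and Xbp1 0.46 (adjusted p = 0.897) and 0.90 (adjusted p = 0.0441), per the authors' deposited table. The next station of secreted proteins, the translocon, signal peptidase and coat genes, had 26 of 34 ratios above 0 and a median of 0.17. The signal recognition particle subunit Srp54a led it with 341 under metformin and 232 under TM5614 (0.55). The coat genes Copa, Copb2, Sec23a and Sec31a had ratios from -0.13 to -0.11.

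The promoters of Creld2 and Hspa5 are shown because they carry the element through which ATF6 acts on chaperone genes, and because both genes stood among the 4 highest of the list. The endoplasmic reticulum stress response element, searched on both strands of the same RefSeq promoters as CCAAT and CCACG with any 9 bases between them, occurred in 39 of 32851 (0.119%). It occurred in 8 of the 20 genes of this list that had a promoter, namely Calr, Canx, Creld2, Dnajc3, Hsp90b1, Hspa5, Pdia6 and Syvn1, whose ratios ran from -0.05 for Canx to 0.95 for Creld2. Both stretches are on the plus strand of GRCm38.p6 and end 1 base before the start of transcription, at chr15:88819396-88819645 for Creld2 and chr2:34771840-34772089 for Hspa5. Capitals mark the element, which is read on the opposite strand in Creld2 and begins 126 bases before the start there and 65 bases before it in Hspa5.
Creld2: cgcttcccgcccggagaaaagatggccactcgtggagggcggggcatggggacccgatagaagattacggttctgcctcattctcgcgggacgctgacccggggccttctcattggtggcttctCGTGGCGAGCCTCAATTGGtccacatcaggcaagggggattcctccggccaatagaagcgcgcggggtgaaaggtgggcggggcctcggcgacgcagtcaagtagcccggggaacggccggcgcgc
Hspa5: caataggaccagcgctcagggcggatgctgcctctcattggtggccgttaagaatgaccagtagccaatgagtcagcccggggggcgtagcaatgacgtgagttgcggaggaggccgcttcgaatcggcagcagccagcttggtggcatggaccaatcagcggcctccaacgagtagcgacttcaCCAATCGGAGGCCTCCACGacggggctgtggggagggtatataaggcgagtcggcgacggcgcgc

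Several acute phase and cytokine-induced genes were lower under metformin than under TM5614. Of 24 acute phase genes, 9 had a ratio above 0, the median was -0.20, and 3 were at least 2-fold lower. Steap4, a metalloreductase induced by interleukin 6, averaged 2737 normalized counts under metformin and 7752 under TM5614 (log2 ratio -1.50). It lies at chr5:7960457-7982213 (GRCm38). Socs3, which turns off the same cytokine's signal, had 173 and 432 (-1.31), and the interleukin 1 receptor antagonist Il1rn 9.62 and 21.9 (-1.11). The protease inhibitor Serpina3n, a member of a family of close copies, had 6200 and 11288 (-0.86), the constitutive serum amyloid Saa4 3062 and 4737 (-0.63), and the iron-binding lipocalin Lcn2 523 and 746 (-0.51). The 3 fibrinogen chains Fga, Fgb and Fgg had ratios of -0.42, -0.34 and -0.30.

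The serum amyloids that respond most to inflammation did not follow. Saa1 had 7622 normalized counts under metformin and 6855 under TM5614 (0.15), and Saa2 had 5437 and 5777 (-0.09), and reads of these near-identical copies may have been divided between them in error. Orm2 had 280 under metformin and 170 under TM5614 (0.72), also in a family of copies. In the authors' deposited table Saa1 rose under both compounds, by a log2 fold change of 3.45 under metformin (adjusted p = 0.0121) and 3.30 under TM5614 (adjusted p = 0.00396). Steap4 had 0.55 under metformin (adjusted p = 0.964) and 2.05 under TM5614 (adjusted p = 0.00322), per the authors' deposited table. Altogether 1 of the 24 acute phase genes was called higher under metformin and 5 under TM5614 in the authors' deposited table, and none lower under either, with an adjusted p for 22 of them under metformin and all 24 under TM5614. Over all genes with an adjusted p, 0.163% were called higher under metformin and 2.01% under TM5614. Besides Saa1 and Steap4, the genes called under TM5614 were Saa2, Lcn2 and Saa4. Their log2 fold changes were 3.59, 2.72 and 0.72 under metformin, against 3.68, 3.23 and 1.35 under TM5614, per the authors' deposited table.

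Several cytokine-induced genes, and 1 cytokine receptor, were lower under metformin too. The interleukin 1 receptor Il1r1, at chr1:40225080-40317257 (GRCm38), averaged 720 normalized counts under metformin and 1883 under TM5614 (-1.39). Its log2 fold change was 0.64 under metformin (adjusted p = 0.954) and 2.02 under TM5614 (adjusted p = 0.00287), per the authors' deposited table. Among 26 cytokine-induced and immediate early genes 9 had a ratio above 0, the median was -0.13, 2 were at least 2-fold lower and 7 at least 1.5-fold lower. The kinase Pim1 had 82.8 under metformin and 186 under TM5614 (-1.16), the early transcription factor Egr1 474 and 1050 (-1.15), and the NF-kappa B co-regulator Nfkbiz 69.0 and 129 (-0.90). Dusp1, a phosphatase that ends MAP kinase signals, was the highest of the 26 with 238 and 174 (0.46). The chemokine Cxcl1, which is in the senescence and p53 list and not among the 26, had 601 and 1402 (-1.22). Pim1, Egr1, Nfkbiz, Cxcl1 and Dusp1 did not pass against the control under either compound in the authors' deposited table. Interferon response genes had 15 of 26 ratios above 0 and a median of 0.04.

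**Figure D3:**
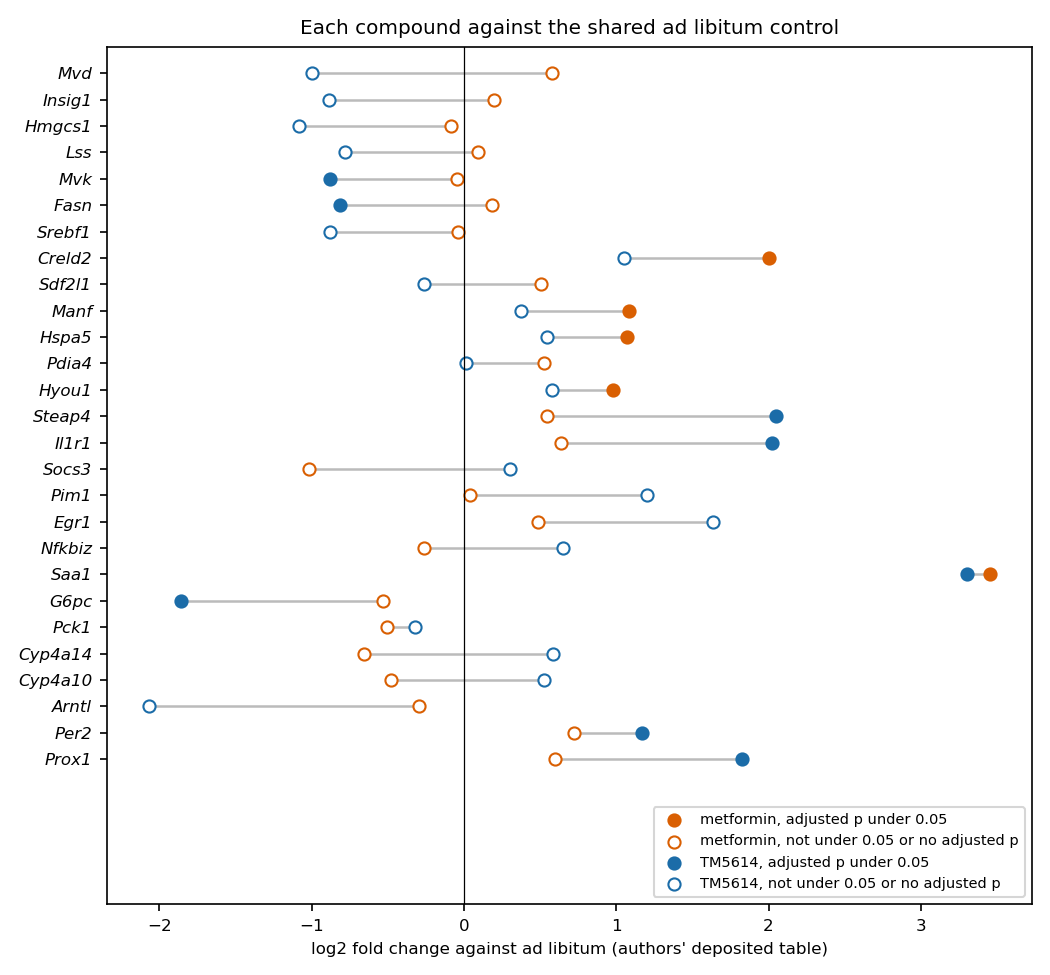
Log2 fold changes against the shared ad libitum control in the authors' deposited table for the 27 genes of the plot of group means, orange for metformin and blue for TM5614; filled circles have an adjusted p under 0.05 and grey lines join the 2 values of a gene. Creld2, Manf, Hspa5 and Hyou1 are filled for metformin alone, Mvk, Fasn, Steap4, Il1r1, G6pc, Per2 and Prox1 for TM5614 alone, and Saa1 for both.

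Arntl stood apart in the clock list. This gene, which encodes the activator BMAL1, averaged 53.2 normalized counts under metformin and 15.7 under TM5614 (log2 ratio 1.70). Of its repressors, Per1 had 178 and 274 (-0.62) and Per2 had 102 and 139 (-0.44), and the output factor Dbp was nearly level at 630 and 644. In all 6 of 19 ratios were above 0 (median -0.05). Under TM5614 Dbp, Per2, Per3 and Tef rose in the authors' deposited table, where Arntl had -2.07 (adjusted p = 0.104), and under metformin none of the 14 with an adjusted p was called, which leaves out Arntl and Per3. Over all genes with an adjusted p, 0.245% were called under metformin and 3.96% under TM5614. Dbp, Per2, Per3 and Tef had log2 fold changes of 1.83, 0.72, 1.83 and 0.81 under metformin, per the authors' deposited table. Under TM5614 they had 1.86, 1.17, 2.06 and 1.17. These messages swing through the day, and the hour at which each liver was taken is not in the labels.

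Genes of fibrinolysis and coagulation lay on both sides. Plasminogen (Plg) had 21425 normalized counts under metformin and 19684 under TM5614 (0.12), and its urokinase activator Plau 14.0 and 18.9 (-0.40). The tissue-type activator Plat, with 6.92 and 7.88, was below the level limit. The urokinase receptor Plaur had 6.28 and 14.8 (-1.12), and thrombomodulin (Thbd), an anticoagulant receptor of endothelium, 94.5 and 153 (-0.69). Tissue factor (F3), which starts coagulation, lay on the other side with 43.0 and 23.5 (0.85). The separate list of coagulation genes had 11 of 16 ratios above 0 and a median of 0.09. The 12 measured members of the fibrinolysis list, to which the genes named here belong, were split evenly, 6 above 0 and 6 below. None of the 12 was called under TM5614, and none of the 8 with an adjusted p under metformin, which leaves out F3, Plau and Plaur, in the authors' deposited table.

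The catalytic AMPK subunits Prkaa1 and Prkaa2 had 129 and 579 normalized counts under metformin, against 146 and 663 under TM5614. The exporter Slc47a1, which carries metformin out of cells, had 659 under metformin and 670 under TM5614 (-0.02). Of the 12 genes of AMPK and metformin transport 5 had a ratio above 0, and the median was -0.10. None of the 12 was called under TM5614, and none of the 10 with an adjusted p under metformin, in the authors' deposited table.

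Genes for ribosomes and the respiratory chain were slightly but evenly higher under metformin. All 72 cytosolic ribosomal protein genes had a ratio above 0 (median 0.27), and so had 35 of 37 complex I genes (median 0.27), 37 of 38 genes of complexes III to V (median 0.22), 69 of 77 mitochondrial ribosomal protein genes (median 0.20) and 32 of 35 proteasome genes (median 0.14). The complex I subunit Ndufa13, for example, averaged 1065 normalized counts under metformin and 795 under TM5614 (0.42). Among the ribosomal genes Rps27 (49.3 under metformin and 8.28 under TM5614) and Rpl26 (58.4 and 21.6) stood out at low means, and both have processed copies in the genome that can take their reads. Splicing factors lay on the other side, with 6 of 38 ratios above 0 and a median of -0.15. The helicase Ddx5 had 2868 under metformin and 4149 under TM5614 (-0.53), and the scaffold Srrm2 866 and 1273 (-0.55). Chromatin regulators had 11 of 37 above 0 and a median of -0.07.

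The ratio varied with transcript length over all genes. Among the 11076 genes with an annotated transcript (98.9%), the median log2 ratio was lower at every step over 10 groups of equal size ordered by length, being 0.23 in the group with the shortest transcripts (median 1.06 kb) and -0.14 in the group with the longest (8.10 kb). Across these genes, which share the same libraries, Spearman's rho of length with the log2 ratio was -0.37, with the metformin fold change -0.06 and with the TM5614 fold change 0.28, both fold changes being those of the authors' deposited table. Cytosolic ribosomal protein transcripts have a median length of 1.11 kb, complex I transcripts 1.05 kb, splicing factors 3.70 kb and chromatin regulators 5.92 kb. Measured from the median of each gene's own length group, the list median was 0.07 for cytosolic ribosomal proteins and 0.10 for complex I, while it was 0.39 for sterol genes and 0.17 for the unfolded protein response. Over all alternative settings, the median ran from -0.10 to 0.03 for chromatin regulators and from -0.18 to -0.13 for splicing factors. It ran from 0.08 to 0.20 for mitochondrial ribosomal proteins, 0.06 to 0.22 for complexes III to V and 0.04 to 0.14 for the proteasome. The part of length in these differences was not tested.

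**Figure D4:**
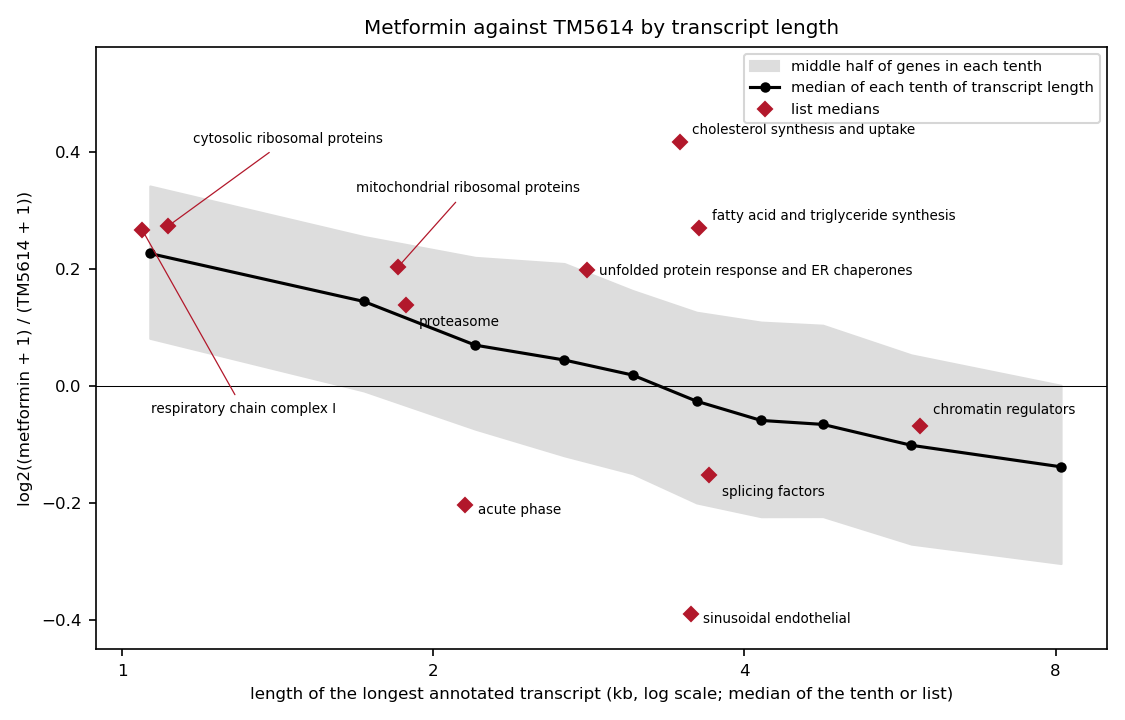
Median log2 ratio of metformin over TM5614 in 10 groups of genes by the length of the longest annotated transcript (black points, kb on a log axis), with the range between the quartiles of each group in grey and the medians of 11 gene lists as red diamonds. The black line runs from 0.23 at 1.06 kb to -0.14 at 8.10 kb; the ribosomal and complex I lists lie close to it, and the sterol, acute phase and endothelial lists lie apart from it.

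Rn45s, Lars2 and Rpph1 had the highest ratios of the genes compared. The ribosomal RNA precursor Rn45s averaged 366479 normalized counts under metformin and 10283 under TM5614 (log2 ratio 5.16), which is 4.40% of the summed group means under metformin, against 0.132% under TM5614. Lars2, annotated as the mitochondrial leucyl-tRNA synthetase, had 21730 and 629 (5.11), and Rpph1, the RNA subunit of ribonuclease P, 51.6 and 1.57 (4.36). Lars2 made 0.261% of the summed means under metformin, 0.0306% under caloric restriction, 0.0298% under rapamycin, 0.0117% in the control and 0.00809% under TM5614. Rn45s made 4.40%, 0.472%, 0.555%, 0.227% and 0.132% in the same order of groups. Whether the reads listed under Lars2 come from ribosomal RNA was not tested. Rpph1 rests on a low TM5614 mean and came to 2.41 with a pseudocount of 10, below Mup16 (3.26). Rpph1 passed the level limit only through its metformin mean, with 0.676 in the control, 3.31 under rapamycin and 10.7 under caloric restriction. In the authors' deposited table Rn45s rose under metformin, with a log2 fold change of 4.37 (adjusted p = 0.00561), against -0.78 under TM5614 (adjusted p = 0.732). Lars2 rose likewise under metformin with 4.58 (adjusted p = 0.00295), against -0.53 under TM5614 (adjusted p = 0.827), per the authors' deposited table, where Rpph1 has no adjusted p under metformin. The protocol selects polyadenylated RNA, which the ribosomal precursor is not, and the part of these RNAs in the other ratios was not tested. With both groups rescaled to equal sums without Rn45s and Lars2, 51 genes were at least 2-fold higher and 73 at least 2-fold lower, so that the share of higher genes was 41.1% of those past the limit, against 47.4% as reported.

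Endothelial markers were lower under metformin as a group. Of 12 markers of liver sinusoidal endothelium, all measured above the level limit, 11 had a ratio below 0 and the median was -0.39. The scavenger receptor Stab1 averaged 198 normalized counts under metformin and 284 under TM5614 (-0.52), the junction protein Cdh5 132 and 187 (-0.50), and the receptor Kdr 145 and 197 (-0.44). Egfl7 was the exception with 101 and 87.5 (0.21). Summed over the 12 markers, the means came to 1626 under metformin and 2060 under TM5614, against 2308 in the control, and none was called under either compound in the authors' deposited table. In whole liver fewer endothelial cells and less RNA per cell cannot be told apart. Thbd (-0.69) and Cd93 (-0.9997), which endothelium also makes, lay on the same side, and the part of the endothelium in their ratios was not tested.

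**Figure D5:**
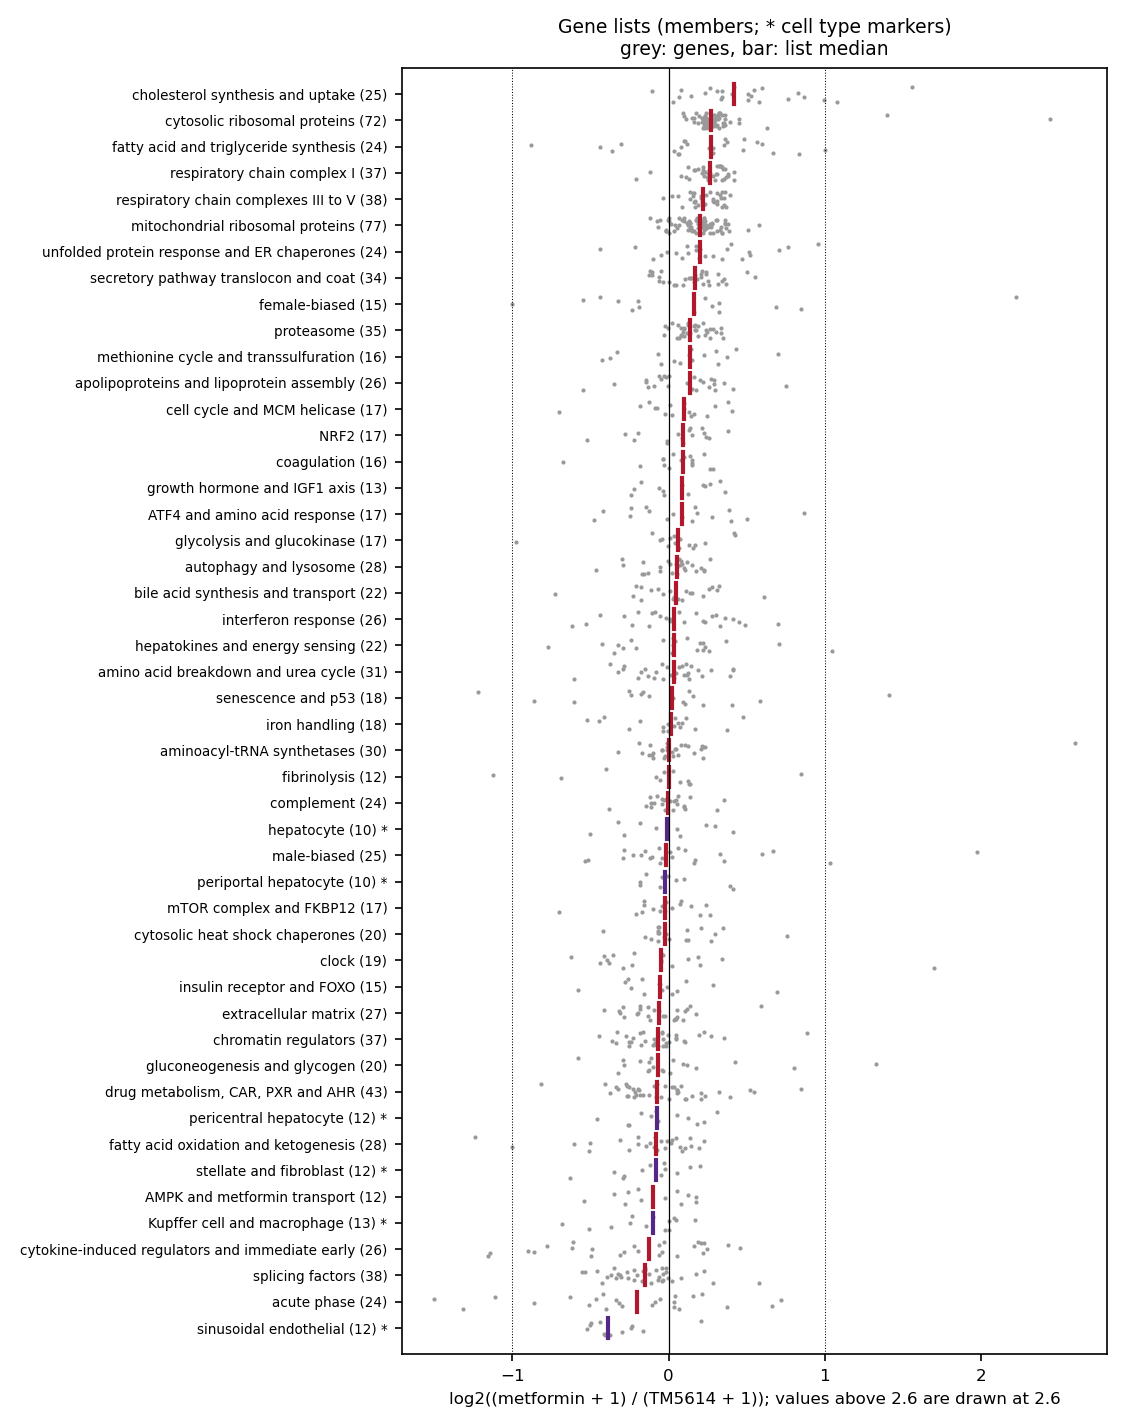
Log2 ratios of metformin over TM5614 for all lists with at least 10 genes above the level limit, ordered by their median; grey dots are genes, red bars medians of functional lists, purple bars medians of cell type marker lists (asterisks), and brackets hold the number of genes. Sterol synthesis lies highest at 0.42 and sinusoidal endothelial markers lowest at -0.39.

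Markers of other cells lay on both sides of 0. Hepatocyte markers, which define the tissue, had 5 of 10 ratios above 0 and a median of -0.01, and albumin (Alb) was the most abundant message in both groups with 6.69e+05 and 6.37e+05 normalized counts. Kupffer cell markers had 4 of 13 above 0 (median -0.10), with Clec4f at 347 under metformin and 372 under TM5614, Timd4 level at 22.7 in both and Marco at 27.3 and 44.5. Stellate cell and fibroblast markers had 3 of 12 above 0 (median -0.08). Their sums were 1773 and 1884 for the Kupffer list and 2659 and 2812 for the stellate list, in each case under metformin and then under TM5614. Cholangiocyte markers had 4 of 5 ratios above 0, a median of 0.26 and sums of 420 under metformin and 334 under TM5614, of which Spp1 alone made 256 and 190. The keratins were not higher, with Krt19 at 5.83 and 6.02 and Krt7 at 3.77 and 5.07. Krt7 is below the level limit but is part of the sums. The 4 erythroid genes were split, with the alpha globins Hba-a2 at 318 under metformin and 173 under TM5614 (0.88) and Hba-a1 at 92.3 and 143 (-0.63), close copies that can exchange reads. Of 11 pancreatic acinar markers in the table, 9 were listed at 0 in both groups, among them the trypsin gene Prss2 and the amylase Amy2a5. The elastases Cela1 and Cela2a had 93.8 and 3.75 under metformin, against 73.1 and 2.49 under TM5614. The acinar sum was 97.5 under metformin and 75.6 under TM5614, against 678 in the control, where none was at 0, and the part of this in the fold changes against the control was not tested. Neutrophil markers were few, with 4 measured and all 4 below 0 (median -0.25), and no T or NK cell marker reached the level limit.

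Among the remaining genes with the largest ratios were several with different roles. Prox1, a transcription factor of hepatocyte and lymphatic identity at chr1:190118035-190170714 (GRCm38), averaged 286 normalized counts under metformin and 667 under TM5614 (-1.22). Its log2 fold change was 0.60 under metformin (adjusted p = 0.808) and 1.83 under TM5614 (adjusted p = 9.3e-06), per the authors' deposited table. The nuclear RNA Neat1, which builds paraspeckles, had 597 and 1528 (-1.35), the transcriptional repressor Atxn1 96.3 and 283 (-1.54), and the magnesium transporter Slc41a1 78.1 and 181 (-1.20). Higher under metformin were the matricellular protein Cyr61 with 82.0 and 21.1 (1.91), the p53 target Bbc3 with 52.1 and 19.0 (1.41), and Moxd1, a monooxygenase-like gene, with 77.8 and 19.1 (1.97). Moxd1 averaged 4.55 in the control, 4.19 under rapamycin and 1.65 under caloric restriction. Moxd1 passed the level limit only through its metformin mean and has no adjusted p under either compound. Bbc3 has no adjusted p under metformin. Of the 18 senescence and p53 genes, 10 had a ratio above 0 (median 0.02), while Cdkn1a lay at -0.61 and Btg2 at -0.86. Mup16, a major urinary protein in a family of near-identical copies, had 375 and 30.1 (3.59).

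A few large ratios rest on single libraries or on values at 0. Amd1, of polyamine synthesis, is listed at 0 under metformin and in every other group but TM5614, so it passed the level limit through TM5614 alone. Its mean of 103 under TM5614 equals 332 reads in 1 library to within 5e-09 of its value. Cux2, a female-biased factor, had 3.67 under metformin and is listed at 0 under TM5614. LOC100048884 and Gm7334 are likewise listed at 0 under metformin, against 47.6 and 29.0 under TM5614, and Hbb-b2, a beta globin with close copies, had 49.97 under metformin and 2.18 under TM5614; these were chosen after their values were seen. In all, 5 genes had a metformin or TM5614 mean made by 1 library (Amd1, LOC100048884, Hbb-b1, Mup17 and Raver1-fdx1l), and without them the counts were 55 higher and 59 lower.

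Of the genes the authors called under both compounds, none was as much as 1.5-fold apart. Among them were Agxt, Mlec, Saa1, Setdb2 and Srf. Agxt, which detoxifies glyoxylate in peroxisomes, averaged 2097 normalized counts under metformin and 1573 under TM5614 (0.41), and its log2 fold change was -0.44 under metformin (adjusted p = 0.0187) and -0.85 under TM5614 (adjusted p = 1.22e-11), per the authors' deposited table. The glycoprotein-binding lectin Mlec had 1046 under metformin and 898 under TM5614 (0.22). The methyltransferase Setdb2 had 91.2 and 97.6 (-0.10), and Srf, which drives immediate early genes, 113 and 116 (-0.04). Genes that only one compound's comparison called, such as Prox1, are not shown by that to differ between the compounds, because the difference itself was not tested.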

How the data were processed

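The authors' deposited table gives, for 12019 genes, a normalized signal per group (a mean of counts divided by size factors), and, per the file headers, a log2 fold change and an adjusted p-value against the ad libitum control, made by the authors with DESeq2 as the table's name states. Reads were aligned with HISAT2 2.0.5 to mm10, per the submitters' processing notes. How reads were counted per gene, and whether by strand, is not given in the sources used here, so antisense and overlapping genes may share reads. A second table holds 18 columns of values per library whose names match none of the labels, and none was used. The limma test planned for values per library was therefore replaced by ratios of group means, with no SD, interval or test, and library depth is unknown.

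Ratios were computed with Python 3.11.15, pandas 2.3.3 and numpy 2.4.6, with a pseudocount of 1 and a minimum mean of 10. The calculation was also run on simulated group means with planted fold changes. That run checks the arithmetic only and says nothing of the differences reported here. The values of 1 read, 0.322 to 0.398 normalized counts under metformin and 0.310 to 0.329 under TM5614, are those that means over 3 libraries give; the control's, 0.315 to 0.350, are of that size too, although 6 control libraries are labelled. Of the table's symbols 10901 match GENCODE vM21, whose longest transcript gave the length. Older symbols were matched through RefSeq synonyms, and 17 of the genes compared have names turned into dates and are not named. The 42 functional and 13 marker lists, and the comparison itself, were chosen with earlier results of these data known. Named are the 15 largest and 15 smallest ratios with a mean of at least 50 in 1 group, up to 4 members per list, the compounds' target and marker genes, and genes called for both compounds. Some genes that this rule names are not reported here. List members named beyond these, and the order in which genes are described, were chosen after their values were seen. Nothing in the labels says how the 3 libraries of a group relate, beyond being separate samples, so the authors' adjusted p may measure technical spread.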

Additional observations from a re-analysis of the deposited data

How the results depend on the processing

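The counts of genes at least 2-fold apart (55 higher and 61 lower under metformin) were 61 and 69 with a pseudocount of 0.5, and 52 and 65 after centring on the median of all genes. They were 66 and 77 from the difference of the deposited log2 fold changes. They moved to 32 higher and 26 lower with a pseudocount of 10, to 23 and 20 with a minimum mean of 50, and to 90 and 84 with no minimum. A fold limit of 1.5 gave 321 and 410. Chosen after seeing the data, centring within groups of like transcript length gave 49 and 64, of which 42 and 49 are among the genes counted as reported. No named gene past the 2-fold limit changed sign under the alternatives that recomputed its ratio, which were all of the 10 but the fold limit of 1.5. The minimum mean of 50 kept 190 of the 231 named genes. Fasn lay just under 2-fold after both rescalings (0.995 and 0.973). With a pseudocount of 10, Il1rn and Plaur were no longer 2-fold lower (-0.70 and -0.61), Cyp4a10 lay just under 2-fold (-0.9991), and Cux2 came to 0.45. In all, 10 values of named genes moved inside the 2-fold limit and 3 beyond it, out of 2036 values recomputed. Of the list medians, 22 moved by over 0.1 and 462 did not. With a minimum mean of 50 the medians of the AMPK, cell cycle and female-biased lists were 0.01, -0.05 and -0.19. After the centring on length those of the apolipoprotein and hepatokine lists were -0.02 and -0.11, and those of the clock and cytokine-induced lists -0.18 and -0.29. Leaving out each replicate in turn and the limma fits were not run, since values per library could not be matched to the labels. No paired analysis was possible because only group means could be used. These means limit every value, since the spread between mice is unknown.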
